A study of Homo sapiens with 9 samples.

Results

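The endoplasmic reticulum (ER) secretory genes described here are 42 named human genes for ER chaperones, disulfide isomerases, the translocon and ER degradation, including targets of the transcription factors ATF6 and XBP1. They were taken as a fixed list of symbols from the 60671 genes in the count files, and 41 of the 42 passed the filter on low counts. The study measured polyadenylated RNA by sequencing in N/TERT cells, human epidermal keratinocytes immortalised with telomerase. Unedited control cells (genotype WT), SGPL1 knockout cells made by CRISPR (KO) and cells overexpressing SGPL1 (OE) were compared, with 3 libraries in each group. No group received a treatment. SGPL1 encodes sphingosine-1-phosphate lyase, an enzyme anchored in the ER membrane. The 3 libraries of a group are biological replicates in the submitters' words. The sources used here do not state how many clones lie behind the KO and OE libraries or which promoter drove the transgene. The p-values set group differences against the spread between these libraries, so they may not cover variation between clones.

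Proteins destined for secretion or for membranes enter the ER through the SEC61 channel, lose their signal peptide to signal peptidase, and fold with the help of chaperones, lectins and disulfide isomerases. Chains that fail to fold are sent back to the cytosol and degraded. When unfolded protein accumulates, the sensors IRE1 (ERN1), ATF6 and PERK start the unfolded protein response, in which spliced XBP1 and cleaved ATF6 activate many of these genes. Keratinocytes depend on this route for laminins, collagens, desmosomal cadherins and secreted proteases.

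The promoters of several of these genes carry the ER stress response element, to which ATF6 and NF-Y bind, and the letters are shown because the genes that carry it did not all move alike. RefSeq promoter sequences (GRCh38.p14, 250 bases before to 50 after the start) were matched by symbol for 37 of the 42 genes. FKBP14, PDIA3, DERL1, SPCS1 and SEC24D had no entry. Both strands were searched for the element named ERSE (CCAAT, 9 unspecified bases, CCACG), for ERSE-II (ATTGG, 1 unspecified base, CCACG) and for TGACGTGG, a core of the unfolded protein response element (UPRE). The element ERSE was found in 6 of the 37 promoters and in 0.0806% of all 27305 promoters of this length. Its matches follow, with the letters of the element in capitals and the unspecified spacer in lower case, written 5′ to 3′ on the strand of the match.
HSPA5: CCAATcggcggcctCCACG
HSP90B1 distal: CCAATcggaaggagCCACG
HSP90B1 proximal: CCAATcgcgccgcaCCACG
CALR: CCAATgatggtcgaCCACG
CANX: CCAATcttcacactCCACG
XBP1: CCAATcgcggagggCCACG
CRELD2: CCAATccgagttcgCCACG
The HSPA5 match lay at chr9:125241391-125241409, 66 to 48 bases before the start on the strand of the gene (minus). The HSP90B1 matches lay at chr12:103930216-103930234 and chr12:103930321-103930339, and those of CALR, CANX and CRELD2 at chr19:12938384-12938402, chr5:179698778-179698796 and chr22:49918554-49918572. That of XBP1 lay at chr22:28800603-28800621. The matches in CALR and CRELD2 and the proximal match in HSP90B1 were on the strand opposite to the gene.

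ERSE-II was found in 3 of the 37 promoters, against 0.0549% of all, and the HYOU1 promoter held it at 2 positions.
HYOU1 distal: ATTGGaCCACG
HYOU1 proximal: ATTGGaCCACG
HERPUD1: ATTGGgCCACG
SDF2L1: ATTGGtCCACG
These lay at chr11:119057380-119057390, chr11:119057274-119057284, chr16:56932025-56932035 and chr22:21642114-21642124. The UPRE core occurred in the DNAJC10 promoter and in that of HYOU1, where it overlapped the distal ERSE-II (2 of 37, against 0.795% of all). Any of the 3 elements was present in 10 of the 37 promoters and in 0.927% of all promoters. The genes were listed in part as ATF6 and XBP1 targets. For each element an excess over all promoters can therefore follow from that choice and is not a finding. Of the 9 translocon and signal peptidase promoters, 0 held a match, which says only that these letters are not in the window. The 150 bases before the start of HSPA5 (chr9:125241344-125241493, minus strand) and of XBP1 (chr22:28800570-28800719, minus strand), a chaperone and a transcription factor of the set described next, show the element in capitals in its context.
HSPA5 upstream: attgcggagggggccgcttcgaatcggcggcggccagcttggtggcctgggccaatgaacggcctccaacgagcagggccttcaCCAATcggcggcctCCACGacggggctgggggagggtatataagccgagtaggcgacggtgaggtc
XBP1 upstream: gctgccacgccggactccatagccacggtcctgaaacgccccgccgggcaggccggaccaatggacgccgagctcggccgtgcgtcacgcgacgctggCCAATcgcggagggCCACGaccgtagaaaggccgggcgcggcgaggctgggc
A match is a description of the sequence and not evidence of binding in these cells.

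Libraries held 6317564 (KO replicate 3) to 13330479 (OE replicate 3) counts, and levels are given as counts per 1e6 counts (CPM) after TMM scaling. SGPL1 had 83.9 to 98.3 CPM in control, 58.3 to 61.6 in KO and 929 to 1132 in OE libraries. Its counts cover all exons, so they do not show whether the remaining KO transcripts carry the edit. The 10 keratinocyte markers were detected in every group, with a summed level of 25881 to 26468 CPM in control, 15353 to 16381 in KO and 28174 to 29051 in OE libraries. KRT5 (mean 11016 CPM in control and 5850 in KO) and KRT14 (5453 and 2929) contributed most to this sum. TP63 (114 and 139) and PERP (1577 and 1879) had higher means in KO, and the other markers had lower means there. Melanocyte markers summed to 89.7 to 101 CPM in control, 69.2 to 76.5 in KO and 60.0 to 71.3 in OE libraries with TYR, DCT and SOX10 at 0. Nearly all of that sum was the single gene MITF, with means of 94.0, 71.1 and 62.5 CPM in control, KO and OE. PMEL had 1.80, 1.74 and 1.17 CPM and MLANA 0.507, 0.394 and 0.818. Fibroblast markers reached at most 28.4 CPM, with COL3A1 and LUM at 0, and blood, endothelial and immune markers at most 9.13 CPM, with PTPRC, CD3E, PECAM1 and HBB at 0. The fibroblast sum was mostly COL1A1, with means of 25.6, 11.2 and 26.0 CPM in control, KO and OE. The part of these differences in the results below was not tested, and in bulk RNA fewer cells of a type and less RNA per cell cannot be told apart.

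Differences between KO and control cells depended on gene length. Exon length here counts all annotated exon bases of a gene and can exceed the length of its transcripts. All tested genes were divided into 10 equal groups by exon length. The shortest group (median 1178 bases) changed by a median of 0.52 on the log2 scale in KO cells, and the longest (13563 bases) by -0.45. The signal peptidase and translocon genes here ranged from 1209 to 11349 bases. Fold changes are therefore given as fitted and, as "corrected", with a trend over exon length and GC content removed from each library, which left -0.00 and -0.02 in those groups. This form of the correction was chosen after results for these genes had been seen under 2 other forms, whose values stand in the closing section. Unless called corrected, values are as fitted.

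**Figure D1:**
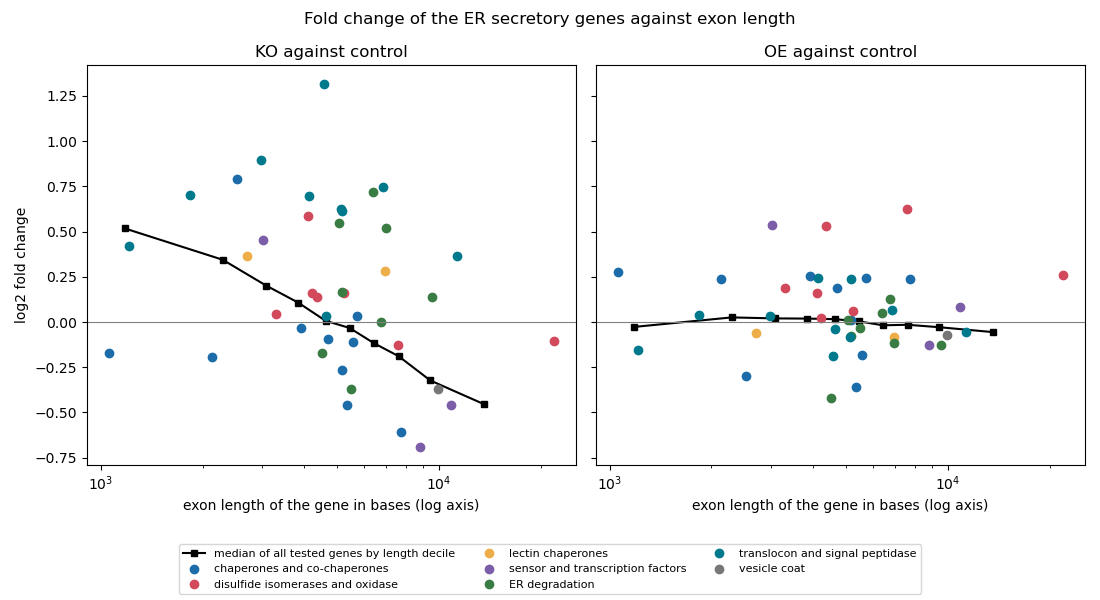
Log2 fold change (vertical axis) of the 41 tested ER secretory genes, as points coloured by role, against exon length in bases (log axis), in KO (left) and OE (right) against control; the black squares are the medians of all tested genes in the 10 groups of length. In KO the black line falls from 0.52 to -0.45, and most translocon and signal peptidase genes lie above it.

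Per kilobase of exon, CALR had the highest level of the set in all groups. It stood at 272 CPM per kilobase in control, 351 in KO and 261 in OE cells. The divisor is the exon length defined above and not a transcript length, so ranks on this scale are approximate. HSPA5 (135) and HSP90B1 (132), the 2 major chaperones of the ER lumen, came next in control cells on this scale, followed by the isomerase P4HB (111) and the lectin CANX (107). HSPA5 and HSP90B1 lie too close on this scale to be ranked. At the other end stood ERN1, the IRE1 sensor, with 0.857 CPM per kilobase in control, and CRELD1, a membrane-anchored isomerase-like protein, with 0.248. CRELD1 did not pass the filter on low counts and shares 54.3% of its exon bases with another gene, so it is not described further. Summed over the 42 genes, the level was 6625 to 6740 CPM in control, 7610 to 7745 in KO and 6872 to 7080 in OE libraries, with no overlap between the groups. As a share of the raw counts the 42 genes held 0.675% to 0.687% in control, 0.721% to 0.725% in KO and 0.708% to 0.728% in OE libraries, so that KO and OE libraries overlapped before TMM scaling and separated only after it.

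The first comparison set KO cells against control cells, to see how these transcripts differ when SGPL1 is edited. Signal peptidase, the translocon-associated TRAP complex and the derlins had more mRNA in KO cells, whereas HYOU1, FKBP14 and the transcription factor CREB3L2 had less. HSPA5 and HSP90B1 did not pass the test as fitted. In all, 17 of the 41 genes were higher, 5 lower and 19 did not pass, beside 26.0% of all tested genes higher and 25.9% lower (51.9% in either direction). The median log2 fold change of the 41 was 0.14, against -0.00 over all tested genes. With the trend removed, 16 were higher and 8 lower, beside 22.8% and 22.4% of all genes (45.2% in either direction), and the median was 0.11. In 20 genes every KO library was above every control library and in 8 every one was below, beside 30.0% and 29.4% of all genes (59.5% in either direction). Of the 22 calls as fitted, 15 stood in the same direction after the correction and 7 were lost, while 9 were gained. The share of members called was 53.7% as fitted, near that of all genes, and 58.5% corrected.

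**Figure D2:**
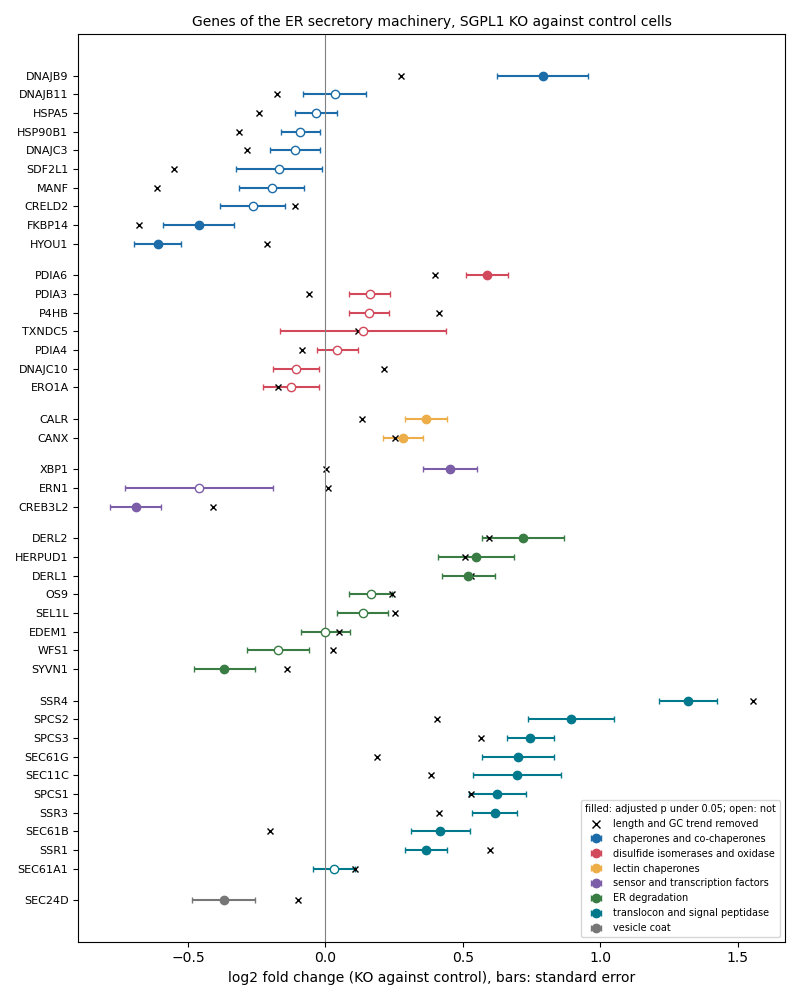
Log2 fold change in KO against control cells for the 41 tested genes, grouped by role (coloured circles with standard errors, filled where the adjusted p was under 0.05) and the value with the length and GC trend removed (crosses). SSR4 is at 1.32 and CREB3L2 at -0.69, and the crosses of the chaperones lie at or below 0 except for DNAJB9.

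Of the 10 translocon and signal peptidase genes 9 rose in KO cells and SEC61A1 did not pass, with a median log2 fold change of 0.66 (corrected 7 of 10 and 0.41). That is 90% called as fitted and 70% corrected, beside the 51.9% and 45.2% of all genes. Their summed level was 1085 to 1175 CPM in control, 1599 to 1670 in KO and 1079 to 1219 in OE libraries. SSR4, the delta subunit of the TRAP complex that assists the SEC61 channel, changed most among the 41 genes (ENSG00000180879, GRCh38 chromosome X, 153793516 to 153798499, plus strand). It had 82.2, 69.0 and 69.5 CPM in the control, 175, 181 and 195 in the KO and 64.1, 54.2 and 75.1 in the OE libraries. Every KO library held more than 2 times the highest OE and control library. The log2 fold change in KO was 1.32 ± 0.10, adjusted p = 6.25e-10 (corrected 1.56).

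The other TRAP subunits rose less. SSR3, the gamma subunit, had 183, 179.8 and 178 CPM in the control, 263, 273 and 293 in the KO and 195, 207 and 236 in the OE libraries. Its KO libraries lay above all others and its OE libraries above the controls (KO 0.62 ± 0.08, adjusted p = 1.32e-06, corrected 0.41). SSR1, the alpha subunit, had 169, 174 and 163 CPM in the control, 204, 225 and 223 in the KO and 158, 167 and 163 in the OE libraries, with only the KO libraries apart from the rest. Its change was 0.37 ± 0.08, adjusted p = 0.000313, and it was larger with the trend removed (0.60). SSR1 is among the long genes of the set, at 11349 bases.

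Signal peptidase, which cuts the signal peptide from the entering chain, rose in all of its 4 listed subunits. SPCS3, part of its catalytic core, had 120.0, 112 and 109.7 CPM in the control, 180.2, 197 and 195 in the KO and 118, 109 and 131 in the OE libraries. SPCS2, an accessory subunit, had 72.6, 47.5 and 47.3 CPM in the control, 83.8, 100.5 and 128 in the KO and 45.6, 60.9 and 64.0 in the OE libraries, so that control replicate 1 lay well above the other controls. SPCS1, the smallest subunit, had 88.9, 92.2 and 82.0 CPM in the control, 143, 129 and 134 in the KO and 81.6, 68.7 and 97.8 in the OE libraries. In each of these 3 genes the KO libraries were above every control library. The log2 fold changes were 0.75 ± 0.09 for SPCS3, 0.89 ± 0.16 for SPCS2 and 0.63 ± 0.10 for SPCS1, with adjusted p of 1.57e-07, 4.36e-05 and 2.36e-05 (corrected 0.57, 0.40 and 0.53). SEC11C, a catalytic subunit, had 21.4, 16.6 and 21.3 CPM in the control, 30.7, 32.1 and 33.5 in the KO and 17.6, 23.2 and 29.0 in the OE libraries. Its KO libraries were the highest, at 0.70 ± 0.16, adjusted p = 0.000811 (corrected 0.38, adjusted p = 0.0365). More than 50% of the exon bases of SPCS1 (56.6%) are shared with the opposite-strand genes GLT8D1 and NEK4, whose reads cannot be told apart from its own.

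In the SEC61 channel the subunits differed. SEC61A1, the pore-forming subunit, had 332, 329 and 324 CPM in the control, 364, 324 and 318 in the KO and 317, 331 and 312 in the OE libraries. The groups overlapped, and SEC61A1 did not pass (0.03 ± 0.08, adjusted p = 0.752, corrected 0.11). SEC61G, the gamma subunit, had 44.2, 40.7 and 38.5 CPM in the control, 71.0, 57.5 and 72.5 in the KO and 33.8, 41.3 and 51.0 in the OE libraries. Its KO libraries stood above the rest (0.70 ± 0.13, adjusted p = 8.84e-05), but SEC61G is short at 1842 bases and the corrected value was 0.19 (adjusted p = 0.147, against 0.0951 and 0.0263 under the first and the second form run). SEC61B, the beta subunit of 1209 bases, was 0.42 ± 0.11, adjusted p = 0.00234 as fitted, and its sign turned with the trend removed (-0.20, adjusted p = 0.089).

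Both lectin chaperones, which hold glycoproteins until they fold, rose in KO cells as fitted. CALR, the soluble calreticulin, had 792, 706 and 719.5 CPM in the control, 927, 916 and 1015 in the KO and 719, 684 and 720.0 in the OE libraries. All KO libraries were above all others, at 0.37 ± 0.08, adjusted p = 0.000315, but the corrected value did not pass (0.14, adjusted p = 0.112). CALR did pass under both earlier forms of the correction (adjusted p = 0.0118 under the first and 0.0125 under the second). CANX, its membrane-bound relative calnexin, was 0.28 ± 0.07, adjusted p = 0.00227 and kept its call (0.25, adjusted p = 0.0025).

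Of the 7 genes for disulfide isomerases and their oxidase, 1 rose in KO cells as fitted and 3 once corrected (14.3% and 42.9% called). PDIA6, an isomerase that also regulates the stress sensors, had 209.8, 201 and 208 CPM in the control, 308, 321 and 301 in the KO and 229.6, 217 and 245 in the OE libraries. The KO libraries of PDIA6 lay above every other library (0.59 ± 0.08, adjusted p = 7.91e-07, corrected 0.40), and 25.2% of its exon bases are shared with ATP6V1C2 on the other strand. P4HB, the classical protein disulfide isomerase, did not pass as fitted (0.16 ± 0.07, adjusted p = 0.072) but did with the trend removed (0.41, adjusted p = 1.23e-05). Without the correction P4HB passed by the DESeq2 Wald test (0.0369), by limma-voom (0.0481) and without OE replicate 3 (0.0376). DNAJC10, a reductase with a J domain and the longest gene here at 21873 bases, turned from -0.11 ± 0.08, adjusted p = 0.302 to a corrected 0.21 (adjusted p = 0.0283). PDIA3, PDIA4, TXNDC5 and the oxidase ERO1A did not pass in either form, with log2 fold changes of 0.16 ± 0.07, 0.04 ± 0.07, 0.14 ± 0.30 and -0.12 ± 0.10 (corrected -0.06, -0.08, 0.12 and -0.17). TXNDC5 shares 61.1% of its exon bases with other genes and had the widest standard error of these. PDIA3 passed without the correction by the DESeq2 Wald test (adjusted p = 0.0431) and without OE replicate 3 (0.0434).

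Of the 10 tested chaperones and co-chaperones, 1 rose and 2 fell in KO cells as fitted, and 0 rose and 7 fell once corrected. As fitted 30% were called, fewer than the 51.9% of all genes, and corrected 70%, beside 45.2%. Their summed level was 1542 to 1630 CPM in control, 1442 to 1510 in KO and 1749 to 1835 in OE libraries. HSPA5 (BiP), the Hsp70 of the ER lumen, had 512, 530.3 and 541 CPM in the control, 519.9, 489.6 and 539 in the KO and 580.1, 659 and 647 in the OE libraries. The KO and control libraries overlapped (-0.03 ± 0.08, adjusted p = 0.743), and the corrected value was lower (-0.24, adjusted p = 0.00572). HSP90B1 (GRP94), the Hsp90 of the ER, had 605, 626 and 636 CPM in the control, 582, 587 and 581 in the KO and 715, 689.7 and 721 in the OE libraries. Its 3 KO libraries lay just under the lowest control library, without passing as fitted (-0.09 ± 0.07, adjusted p = 0.289) and with a lower corrected value (-0.31, adjusted p = 0.000309).

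HYOU1, the nucleotide exchange factor that works with HSPA5, had 137, 153 and 150.0 CPM in the control, 97.1, 96.0 and 95.2 in the KO and 170.3, 189 and 161 in the OE libraries. Its KO libraries were the lowest of all and close together, at -0.61 ± 0.09, adjusted p = 2.44e-06 (corrected -0.21, adjusted p = 0.024). FKBP14, a prolyl isomerase that acts on collagens, had 33.0, 27.7 and 30.4 CPM in the control, 22.1, 21.5 and 22.7 in the KO and 22.0, 24.1 and 24.9 in the OE libraries. Both edited groups lay below the controls, and the KO change was -0.46 ± 0.13, adjusted p = 0.0044 (corrected -0.68). DNAJB9, a co-chaperone that restrains IRE1, went the other way, with 16.5, 14.2 and 14.5 CPM in the control, 21.7, 25.7 and 31.3 in the KO and 10.1, 12.6 and 13.9 in the OE libraries. Its KO libraries were above and its OE libraries below every control library. The KO change was 0.79 ± 0.17, adjusted p = 0.000347, but DNAJB9 is short at 2538 bases and the corrected value did not pass (0.28, adjusted p = 0.146).

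The remaining chaperones did not pass as fitted. MANF, a secreted factor that binds HSPA5, was at -0.20 ± 0.12 as fitted and -0.61 corrected (adjusted p = 4.84e-05). SDF2L1, a partner of ER J proteins, was at -0.17 ± 0.16 and -0.55 (corrected adjusted p = 0.00634, or 0.0574 under the first form run), and DNAJC3, an inhibitor of PERK, at -0.11 ± 0.09 and -0.28 (0.00798). DNAJB11, a co-chaperone of HSPA5, and CRELD2, a stress-induced ER protein, passed in neither form, at 0.03 ± 0.11 and -0.26 ± 0.12 (corrected -0.18 and -0.11).

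**Figure D3:**
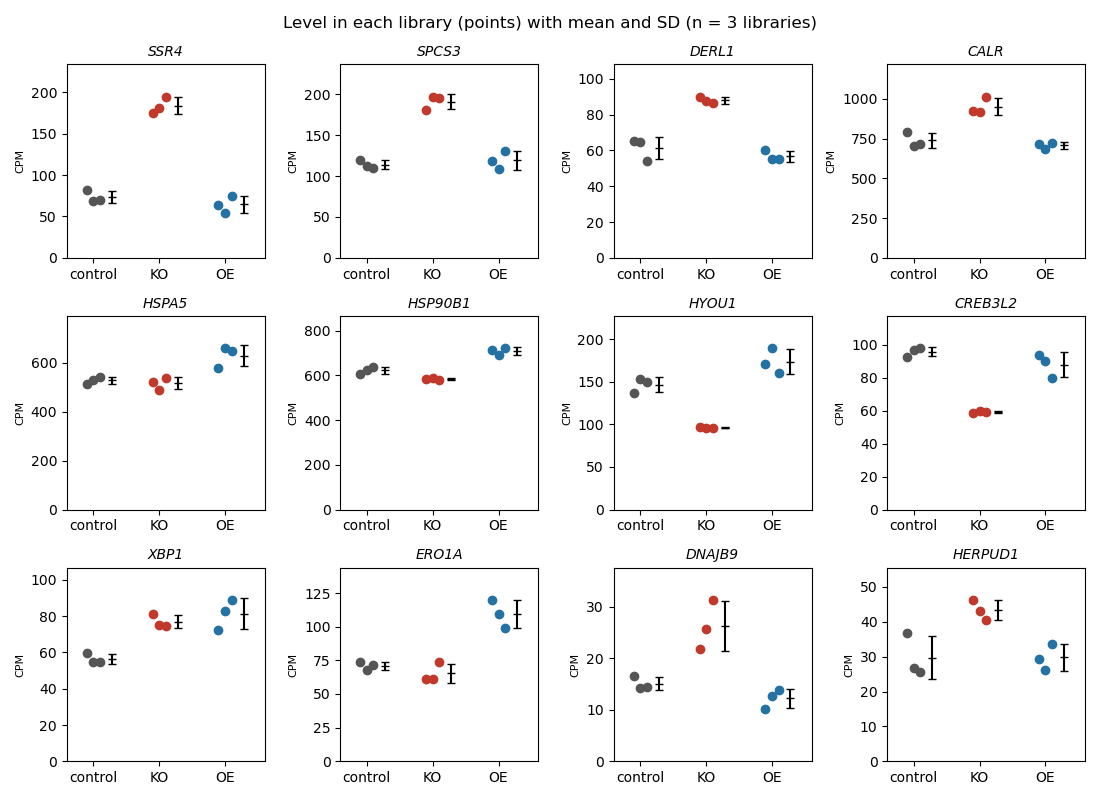
CPM (vertical axis, from 0) of 12 of the genes in each of the 9 libraries as points, with the group mean and SD beside them (n = 3). SSR4, SPCS3 and DERL1 are highest in the KO libraries, HYOU1 and CREB3L2 lowest there, and ERO1A is highest in the OE libraries.

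In ER degradation 3 of 8 genes rose and 1 fell in KO cells as fitted, and 5 rose and 0 fell once corrected (50% and 62.5% called, beside 51.9% and 45.2% of all genes). DERL1, a derlin of the channel that moves failed proteins out of the ER, had 65.3, 64.6 and 54.2 CPM in the control, 90.0, 87.4 and 86.4 in the KO and 60.1, 55.0 and 55.0 in the OE libraries. DERL2, its homologue, had 20.3, 22.3 and 20.7 CPM in the control, 33.0, 32.7 and 38.9 in the KO and 19.6, 18.3 and 27.1 in the OE libraries. For both derlins the KO libraries lay above all others, with log2 fold changes of 0.52 ± 0.10 and 0.72 ± 0.15, adjusted p of 8.36e-05 and 0.000275 and corrected values of 0.53 and 0.60. HERPUD1, which organises the HRD1 ubiquitin ligase complex, had 36.8, 26.6 and 25.6 CPM in the control, 46.3, 43.2 and 40.6 in the KO and 29.4, 26.2 and 33.7 in the OE libraries. Control replicate 1 was the highest control, still below the KO libraries (0.55 ± 0.14, adjusted p = 0.00192, corrected 0.51). SYVN1, the HRD1 ligase itself, fell as fitted (-0.37 ± 0.11, adjusted p = 0.00765), but not once corrected (-0.14, adjusted p = 0.288) or without KO replicate 3 (adjusted p = 0.0576). Its adaptor SEL1L and the lectin OS9 passed once corrected (0.25 and 0.24, adjusted p = 0.0144 and 0.00739), from 0.14 ± 0.09 and 0.16 ± 0.08 as fitted. EDEM1, which marks glycoproteins for degradation, and WFS1, wolframin, passed in neither form (0.00 ± 0.09 and -0.17 ± 0.11, corrected 0.05 and 0.03).

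The stress sensor and the transcription factors each behaved differently. XBP1, whose spliced form drives many of these genes, had 59.6, 54.6 and 54.8 CPM in the control, 81.1, 75.4 and 74.7 in the KO and 72.5, 83.0 and 89.0 in the OE libraries. Its level was higher in both edited groups than in any control library. The KO change of XBP1 was 0.45 ± 0.10, adjusted p = 0.000444, and it was 0.00 with the trend removed (adjusted p = 0.986). Gene counts do not separate spliced from unspliced XBP1. CREB3L2, a factor that activates genes of the COPII coat, had 92.9, 96.7 and 98.0 CPM in the control, 58.8, 60.0 and 59.4 in the KO and 94.2, 90.4 and 79.6 in the OE libraries. The KO libraries were far below the rest and almost equal to each other (-0.69 ± 0.09, adjusted p = 1.14e-06, corrected -0.41).

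ERN1 had 8.84, 8.74 and 10.3 CPM in the control, 3.86, 10.4 and 5.75 in the KO and 8.08, 11.2 and 10.2 in the OE libraries. KO replicate 2 lay above every control library and the other KO libraries below, and the change did not pass (-0.46 ± 0.27, adjusted p = 0.161, corrected 0.01). Without KO replicate 2 it passed at -0.98 (adjusted p = 0.00499). SEC24D, a cargo adaptor of the COPII coat, was lower as fitted (-0.37 ± 0.11, adjusted p = 0.00944), but not once corrected (-0.10, adjusted p = 0.455) or without control replicate 3 (adjusted p = 0.0824).

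In OE cells 8 of these genes changed. ERO1A and XBP1 rose most clearly, with smaller rises of HSPA5, HYOU1, DNAJC10 and SSR3 and falls of WFS1 and FKBP14. That made 6 of 41 higher and 2 lower, with 33 that did not pass, beside 9.28% and 9.34% of all tested genes (18.6% in either direction). The median log2 fold change was 0.03, against -0.01 over all tested genes. The corrected counts were 6 and 2 as well, for the same 8 genes, beside 10.1% and 11.2% of all genes (21.3% in either direction). The OE and control libraries did not overlap in 12 genes that were higher and 3 that were lower, beside 17.2% and 17.6% of all genes (34.8%).

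**Figure D4:**
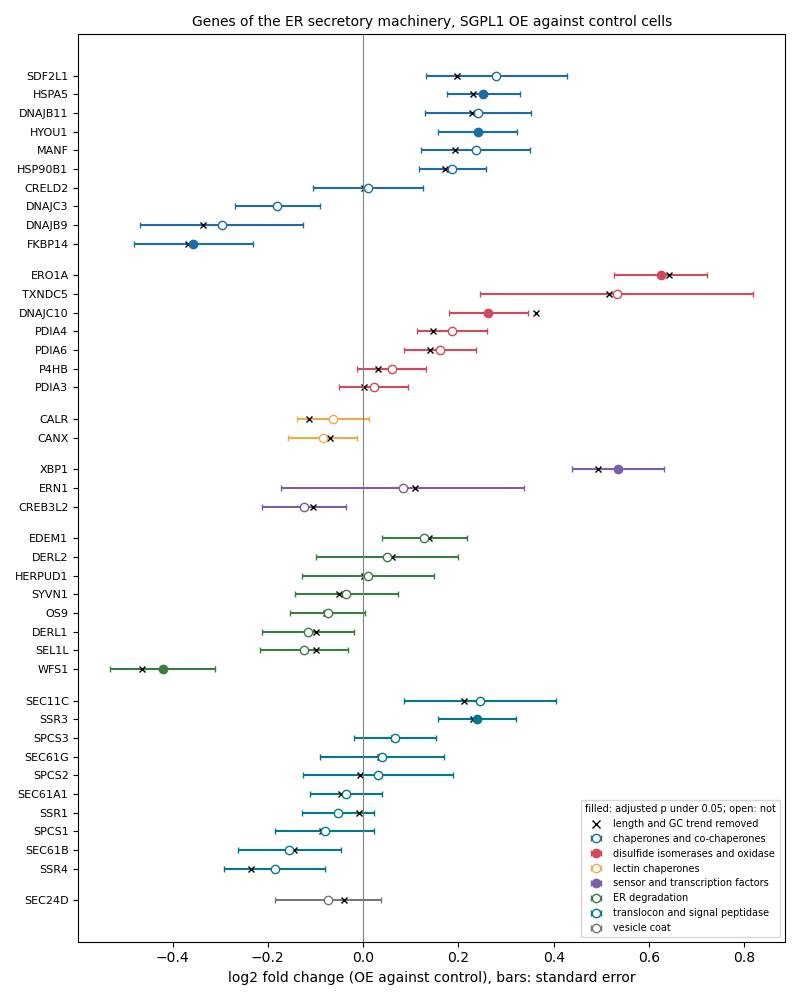
Log2 fold change in OE against control cells for the 41 tested genes, grouped by role as coloured circles with standard errors (filled where the adjusted p was under 0.05), with crosses for the values corrected for length and GC content. ERO1A (0.62) and XBP1 (0.54) lie farthest to the right among the filled circles, and the crosses stay close to the circles.

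ERO1A, the oxidase that recharges the disulfide isomerases, had 73.7, 67.7 and 71.3 CPM in the control, 60.9, 61.3 and 73.7 in the KO and 119.8, 109.8 and 98.9 in the OE libraries. Its OE libraries lay above all others, and KO and control libraries overlapped (OE 0.62 ± 0.10, adjusted p = 5.67e-05, corrected 0.64). XBP1 in OE cells, with the values given above, was 0.54 ± 0.10, adjusted p = 0.000288 (corrected 0.49). The calls of ERO1A, XBP1 and WFS1 held with any single library left out.

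The chaperones that rose in OE cells changed by less. HSPA5 was 0.25 ± 0.08, adjusted p = 0.022 (corrected 0.23) and HYOU1 0.24 ± 0.08, adjusted p = 0.0437 (corrected 0.24), with every OE library above every control library in both. HSP90B1 had the same order of libraries without passing (0.19 ± 0.07, adjusted p = 0.0683, corrected 0.17), and it passed by DESeq2 (0.0176) and limma-voom (0.036). DNAJC10 had 165, 165 and 142 CPM in the control, 136, 149 and 154 in the KO and 195, 187 and 184 in the OE libraries, so that its OE libraries were the highest (0.26 ± 0.08, adjusted p = 0.028, corrected 0.36). SSR3 passed narrowly (0.24 ± 0.08, adjusted p = 0.0438, corrected 0.23).

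WFS1, an ER membrane protein that limits ATF6, had 51.8, 53.5 and 51.5 CPM in the control, 47.7, 50.5 and 40.4 in the KO and 40.5, 42.2 and 34.8 in the OE libraries. The OE libraries were below every control library (-0.42 ± 0.11, adjusted p = 0.00871, corrected -0.46), and FKBP14 was also lower (-0.36 ± 0.12, adjusted p = 0.0482, corrected -0.37). Leaving out single libraries ended the other calls. The number higher was 3 without control replicate 1 or 2, and 2 without control replicate 3 or OE replicate 2. HSPA5 did not pass without any of these 4 libraries in turn (adjusted p up to 0.0937), HYOU1 had p up to 0.226, SSR3 up to 0.156, DNAJC10 up to 0.186 and FKBP14 up to 0.195. The call of FKBP14 was lost on leaving out any single library except KO replicate 3.

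Both comparisons above share the control libraries, and KO and OE cells were also compared directly. Against OE cells, 18 of 41 genes were higher in KO, 10 lower and 13 did not pass, beside 28.6% and 29.0% of all tested genes (57.6% in either direction). Once corrected the counts were 17 and 11, beside 27.1% and 26.0% of all genes (53.1%), and 68.3% of the members were called in each form. The median of the 41 was 0.10 as fitted and -0.06 corrected, a change of sign that the 2 earlier forms did not give (0.07 under the first and 0.05 under the second). Libraries did not overlap in 18 genes higher and 11 lower, beside 30.5% and 31.1% of all genes (61.6%). The translocon and signal peptidase genes were higher in KO in 9 of 10 cases (corrected 6 of 10), with SSR4 at 1.50 ± 0.10, adjusted p = 3.62e-11 (corrected 1.79) and SPCS3 at 0.68 ± 0.09, adjusted p = 3.85e-07 (corrected 0.50). Without OE replicate 1 SEC11C was not called (adjusted p = 0.116). Chaperones were lower in 5 of 10 (corrected 7 of 10) and higher in 1, DNAJB9. HSPA5 differed by -0.29 ± 0.08, adjusted p = 0.00277 (corrected -0.47) and HSP90B1 by -0.28 ± 0.07, adjusted p = 0.00176 (corrected -0.49). The difference of HYOU1 was -0.85 ± 0.08, adjusted p = 1.07e-08, and smaller once corrected (-0.45). SDF2L1 and MANF differed by -0.45 ± 0.15 and -0.43 ± 0.12 (adjusted p = 0.0149 and 0.00302), and by more once corrected (-0.75 and -0.80). As fitted, SDF2L1 did not pass without KO replicate 1 (adjusted p = 0.0722) or without OE replicate 2 (0.0535). The direct test thus separated KO from OE cells for the 2 major chaperones, where KO against control as fitted had not passed.

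Other genes gave a mixed picture between KO and OE. ERO1A was lower in KO at -0.75 ± 0.10, adjusted p = 7.87e-07 (corrected -0.82), and CREB3L2 at -0.57 ± 0.09, adjusted p = 1.22e-05 (corrected -0.30). DNAJB9 was higher by 1.09 ± 0.17, adjusted p = 6.83e-06 (corrected 0.61). CALR, CANX and PDIA6 were higher in KO (0.43 ± 0.08, 0.37 ± 0.07 and 0.43 ± 0.08, adjusted p up to 0.000148), with corrected values of 0.25, 0.32 and 0.26. DERL1, DERL2 and HERPUD1 were higher as well (0.63 ± 0.10, 0.67 ± 0.15 and 0.54 ± 0.14, adjusted p up to 0.00179), with corrected values of 0.63, 0.54 and 0.51. For XBP1 the difference was -0.08 ± 0.10, adjusted p = 0.479 as fitted and -0.49 corrected (adjusted p = 3.07e-05).

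Genes that share the promoter element ERSE did not move as a block. In KO against control, as fitted, HSPA5, HSP90B1 and CRELD2 did not pass while CALR, CANX and XBP1 were higher. Once corrected, HSPA5 and HSP90B1 were lower, CANX was higher, and CALR, XBP1 and CRELD2 did not pass. Of the ERSE-II genes, HERPUD1 was higher and HYOU1 lower in both forms, and SDF2L1 was lower once corrected. In OE against control, HSPA5, XBP1, HYOU1 and DNAJC10 rose, 4 of the 10 genes with any of the 3 elements. That stands beside 6 of the 41 tested members and 9.28% of all genes. The 10 come from a list chosen in part as ATF6 and XBP1 targets and with earlier results known. The higher share is therefore not a finding. HSP90B1, CRELD2, SDF2L1, CALR, CANX and HERPUD1 did not pass in OE. ERO1A and SSR3, whose promoters held no match, rose in OE as well. Of the 4 genes with an element that rose, only the call of XBP1 held with any single library left out.

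The rest of the pathway was followed in 6 further lists of genes. Their counts stand beside 26.0% of all tested genes higher and 25.9% lower in KO as fitted (51.9% called), 22.8% and 22.4% corrected (45.2%), and 9.28% and 9.34% in OE (18.6%). In the PERK and ATF4 arm 9 of 15 tested genes rose and 1 fell in KO cells (corrected 4 and 1), and 2 rose and 2 fell in OE cells. The share called was 66.7% in KO as fitted and 26.7% in OE, and the corrected share in KO was 33.3%, below that of all genes. TRIB3, a pseudokinase induced by ATF4, rose from 16.1 ± 1.74 (SD, n = 3) to 34.6 ± 4.01 CPM in KO (1.10 ± 0.16, adjusted p = 3.75e-06, corrected 1.11) and to 32.3 ± 7.35 in OE (1.01 ± 0.16, adjusted p = 5.69e-05, corrected 0.95). CHAC1, a glutathione-degrading target of ATF4, rose in KO (2.06 ± 0.40, adjusted p = 0.000138, corrected 1.89) from 1.73 ± 0.861 CPM, and CEBPG, a partner of ATF4, rose as fitted (0.44 ± 0.10, adjusted p = 0.00091, corrected 0.20, adjusted p = 0.11). CEBPB rose in OE (0.36 ± 0.10, adjusted p = 0.0111, corrected 0.26). Named after their values were seen, the gene that fell in KO was EIF2AK3, which encodes PERK (-0.54 ± 0.15, adjusted p = 0.00485, corrected -0.61), and those that fell in OE were DDIT3 (-1.41 ± 0.40, adjusted p = 0.0137, corrected -1.41) and SESN2 (-0.35 ± 0.12, adjusted p = 0.0415, corrected -0.40). In KO both were higher than in control as fitted, DDIT3 at 0.93 ± 0.35, adjusted p = 0.028 (corrected 0.33, adjusted p = 0.489) and SESN2 at 0.43 ± 0.12, adjusted p = 0.00376 (corrected 0.48). DDIT3 was at a low level, with means of 2.77 CPM in control, 5.27 in KO and 1.05 in OE. These rest on 76, 122 and 33 counts summed over the 3 libraries of each group.

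Of 27 other genes of the translocon, the signal recognition particle, signal peptidase and oligosaccharyltransferase 18 rose and 2 fell in KO cells (corrected 14 and 5), with a median of 0.44 (corrected 0.28), and 0 rose or fell in OE cells (corrected 1 and 0). In KO 74.1% were called as fitted and 70.4% corrected, beside 51.9% and 45.2% of all genes. In OE 0% were called as fitted, beside 18.6% of all genes. The signal recognition particle protein SRP9 went from 173 ± 10.3 to 442 ± 28.4 CPM (1.36 ± 0.08, adjusted p = 6.24e-12, corrected 0.83). SEC11A, the other catalytic subunit of signal peptidase, rose (1.03 ± 0.09, adjusted p = 3.84e-09, corrected 1.07), as did the oligosaccharyltransferase subunit OST4 (1.31 ± 0.11, adjusted p = 2.7e-09, corrected 0.58). The 2 that fell, named after their values were seen, were SEC63 (-0.27 ± 0.08, adjusted p = 0.00553, corrected -0.22) and KRTCAP2 (-1.39 ± 0.56, adjusted p = 0.0423, corrected -1.54).

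Among 36 other folding factors 20 rose and 2 fell in KO (corrected 16 and 3), and 3 rose and 1 fell in OE. The share called was 61.1% in KO as fitted, 52.8% corrected and 11.1% in OE, the last below that of all genes. By p, the selenoprotein SELENOF (1.06 ± 0.09, adjusted p = 2.34e-09, corrected 0.53), the peroxiredoxin PRDX4 (1.15 ± 0.12, adjusted p = 2.83e-08, corrected 0.68) and SELENOM (2.24 ± 0.28, adjusted p = 4.04e-07, corrected 2.28) led in KO. The oxidase ERO1B, named after its values were seen, changed by more than SELENOF and PRDX4 at a higher p (1.29 ± 0.28, adjusted p = 0.00052, corrected 1.07). In OE the calcium-binding proteins CALU (0.35 ± 0.07, adjusted p = 0.00124, corrected 0.37) and RCN2 (0.41 ± 0.10, adjusted p = 0.00412, corrected 0.44) had the smallest p. Chosen after their values were seen, UGGT1 and MLEC were the 2 that fell in KO as fitted (-0.69 ± 0.09 and -0.26 ± 0.08). Once corrected UGGT1 was at -0.36, and MLEC did not pass (-0.10, adjusted p = 0.258). In OE SERPINH1 was the third that rose (0.26 ± 0.09, corrected 0.25) and TMX2 the one that fell (-0.34 ± 0.09, corrected -0.37). As fitted, the highest adjusted p of these 4 was 0.0368.

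Other degradation genes rose in 15 and fell in 3 of 28 cases in KO (corrected 11 and 3), and 0 rose and 2 fell in OE. The share called was 64.3% in KO as fitted, 50% corrected, near that of all genes, and 7.14% in OE. The ubiquitin ligase RNF5 (0.76 ± 0.11, adjusted p = 2.57e-06, corrected 0.13, adjusted p = 0.364) and UFD1 (0.68 ± 0.11, adjusted p = 1.27e-05, corrected 0.93) rose in KO. NPLOC4, the partner of UFD1 on the VCP segregase, fell in KO (-0.59 ± 0.09, adjusted p = 9.67e-06, corrected -0.17, adjusted p = 0.0764) and in OE (-0.32 ± 0.09, adjusted p = 0.0137, corrected -0.31), where RNF103 also fell (-0.39 ± 0.13, adjusted p = 0.0375, corrected -0.37). VCP and UBE2G2, named after their values were seen, were the others that fell in KO (-0.21 ± 0.08 and -0.28 ± 0.10, adjusted p up to 0.0239), with corrected values of -0.17 and -0.16, of which UBE2G2 did not pass (adjusted p = 0.179). In the 37 genes of COPII, cargo receptors, COPI and KDEL receptors 17 rose and 6 fell in KO (corrected 15 and 9), which is 62.2% called as fitted and 64.9% corrected. The cargo receptors TMED2 (0.96 ± 0.08, adjusted p = 1.75e-09, corrected 0.60) and TMED10 (0.85 ± 0.08, adjusted p = 6.72e-09, corrected 0.63) rose, and SEC16A, the scaffold of ER exit sites, fell (-0.90 ± 0.09, adjusted p = 1.07e-08, corrected -0.32). In OE 10.8% were called: 2 rose, MCFD2 (0.35 ± 0.08, adjusted p = 0.0041, corrected 0.35) and BET1 (0.45 ± 0.15, adjusted p = 0.0412, corrected 0.43), and 2 fell, SEC31A (-0.31 ± 0.09, adjusted p = 0.0172, corrected -0.28) and COPA (-0.26 ± 0.08, adjusted p = 0.0291, corrected -0.24), with BET1 and COPA named after their values were seen. Among 7 sensors, proteases and factors of the ATF6, IRE1 and CREB3 type, CREB3 (0.38 ± 0.11, adjusted p = 0.00539, corrected -0.08) and the protease MBTPS2 (0.28 ± 0.11, adjusted p = 0.033, corrected 0.25, adjusted p = 0.0522) rose in KO as fitted and 0 fell (28.6% called, below all genes), and MBTPS2 rose in OE (0.36 ± 0.11, adjusted p = 0.0168, corrected 0.38).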

How the data were processed

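Polyadenylated RNA of 9 N/TERT libraries was sequenced as paired reads, per the labels' protocols, and grouped by the titles. The deposited files hold whole-number counts of reads per gene, made by the authors with featureCounts 1.5.2 against Ensembl release 101 on GRCh38, per the file headers. HISAT2 1.03, DESeq2, FastQC and a different featureCounts version (0.1.0) stand in the submitters' processing notes. The headers set no option for read pairs or strand, so mates may be counted separately, and overlapping or antisense genes cannot be told apart.

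Counts were tested with edgeR 4.0.16 under R 4.3.3. DESeq2 1.42.0 and limma 3.58.1 served for alternatives. A minimum count of 10 in filterByExpr left 13390 genes, which were scaled by TMM and fitted with all 9 libraries in a quasi-likelihood model, two-sided, with Benjamini-Hochberg adjusted p under 0.05 counted as changed. The procedure was tested on simulated data with 200 changed genes, fewer than were called here. At a log2 change of 1 it recovered 83.7% in KO against control, 79.8% in OE against control and 73.2% in KO against OE. At 0.5 it recovered 35.4%, 55.1% and 38% of genes drawn from all levels, so a gene that did not pass may still differ. How far depends on its standard error, which in KO against control was 0.27 for ERN1 and 0.08 for SEC61A1. Among the unchanged genes 12, 6 and 9 were called. The depth of 6317564 to 13330479 counts makes 3 counts worth 0.225 to 0.475 CPM. Replicates differed by more than sampling noise.

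For corrected values a loess surface (span 0.3, degree 2) of log2 CPM (prior count 2) over log2 exon length and GC content entered as an offset in each library. Exon length was that of all annotated exon bases of a gene, and GC content that of its longest annotated transcript. An effect of transcript length may therefore remain in corrected values. The correction was run in 3 versions, and the member results of each were seen before the next was run. Least-squares loess of degree 1 and then of degree 2 left medians of 0.17 and 0.15 in the shortest of 10 groups of genes by exon length in KO against control. The robust loess of degree 2, which left -0.00, was adopted for that reason, after the data were seen.

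The members and lists were chosen with earlier results of these data known. Named in every library were the 16 members of smallest p in KO and 8 in OE against control, with HSPA5, HSP90B1, XBP1, ERN1, HERPUD1 and DNAJB9. Of each list up to 3 genes of smallest p in KO and 2 in OE were named. SEC61A1 was added to the members shown by library after its values were seen. Alternatives were other scalings, tools and filters, fits of only the groups compared, a replicate block, a threshold of 0.01 and each library left out. Protein sequences were not analysed here.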

Additional observations from a re-analysis of the deposited data

How the results depend on the processing

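Under DESeq2's size factors all calls of single genes kept their side of the threshold in the 3 comparisons. With the trend removed by the adopted robust loess, with or without a replicate block, 8 members were lower in KO against control, and the median of KO against OE was -0.059. DNAJC10 turned to 0.21 in both of these fits and SEC61B to -0.20 in KO against control, and SEC61B to -0.059 (with the block -0.063) in KO against OE. The 2 versions run earlier, kept as alternatives, gave for KO against control 17 members higher and 7 lower (least-squares loess of degree 1) and 18 higher and 8 lower (degree 2), against 16 and 8 for the adopted version. Their values for DNAJC10 were 0.29 and 0.25 and for SEC61B -0.013 and -0.043, and the median of KO against OE was 0.073 and 0.049, so that its sign turned under the adopted version alone. Calls in KO against control that depended on the version were CALR (degree 2, adjusted p = 0.0125; degree 1, 0.0118; robust, 0.112), SEC61G (0.0263, 0.0951 and 0.147) and SDF2L1 (0.0499, 0.0574 and 0.00634), and HSP90B1 in OE passed with degree 2 alone (0.0482). In OE against control 1 member was lower by the DESeq2 Wald test, without a filter on low counts, with only the groups compared, with the replicate block and at a threshold of 0.01, where 2 were higher. The median of KO against OE was 0.051 without the filter. With each library left out, KO against control kept 17 to 19 higher and 4 to 6 lower with a median of 0.055 to 0.16, OE against control 2 to 6 and 1 to 2 with -0.0084 to 0.078, and KO against OE 17 to 19 and 8 to 10 with 0.081 to 0.13. The replicate numbers did not pair the samples: same-numbered libraries had correlations of deviations from -0.0772 to 0.066, and 3 of 9 correlated best with their own number. With the number as a block, 17 members were higher and 5 lower in KO against control, 6 and 1 in OE against control and 18 and 11 in KO against OE. The cause of these shifts was not tested.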
